A study of Mus musculus with 9 samples.

Results

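Tubulins and the tubulin-binding protein stathmin were measured in group 2 innate lymphoid cells (ILC2s) of the mouse pancreas, with and without interleukin-33 (IL-33). The 10 genes were chosen by symbol. They are the alpha-tubulin genes Tuba1a, Tuba1b, Tuba1c and Tuba4a, the beta-tubulin genes Tubb5, Tubb4b, Tubb2a and Tubb6, the gamma-tubulin gene Tubg1, and Stmn1, which encodes stathmin. All 10 were found among the 20732 genes of the count table, and all 10 passed the filter on low counts.

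The study compared bulk RNA-seq of ILC2s from C57BL6/J mice given PBS (4 libraries, titled naïve) or 200 ng of IL-33 (5 libraries) on days 0 and 1, with the pancreas taken on day 5. No engineered allele was listed for either group, and the ages of the mice were not given in the sources used here. Live CD45+ cells were sorted that were negative for CD3, B220 and a lineage panel and positive for KLRG1, and a single gate is described for both groups. The design text gives the group sizes the other way round (5 PBS, 4 IL-33), and the sample labels were followed. Nothing in the labels says whether libraries came from separate mice, and p-values measure the spread between libraries.

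Microtubules are hollow polymers of alpha/beta-tubulin dimers, which lymphocytes use to position organelles, to move and to build the mitotic spindle. New filaments start from rings of gamma-tubulin, and stathmin binds free dimers and promotes the disassembly of filaments unless it is phosphorylated. Mammals carry several alpha and beta genes (isotypes) that differ mainly at the carboxy-terminal tail. Cells also adjust tubulin mRNA to the pool of free dimers: TTC5 reads the first residues of a nascent tubulin chain and recruits a deadenylase, so that the mRNA being translated is degraded.

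The libraries held 14216976 to 21020023 counts and 16015 to 17573 detected genes each. All 11 ILC2 markers examined, Gata3, Il1rl1 and Klrg1 among them, had counts in every library. PBS replicate 4 stood apart: 28.0% of its counts came from 10 acinar genes, against 0.0760% to 5.04% in the other PBS libraries and 0.239% to 7.87% with IL-33, and its TMM scaling factor was 0.532 where the others lay between 0.990 and 1.17. Beta-globin transcripts were high in IL-33 replicates 1, 2 and 3. The 4 cell cycle genes examined, Mki67, Top2a, Cdk1 and Ccnb1, were all higher with IL-33, and their summed level was 26.9 to 83.5 CPM with PBS and 654 to 971 CPM with IL-33. The part of cell cycle entry, of acinar RNA or of globin RNA in the tubulin results was not tested, and results without the doubted libraries are given beside them. Levels below are CPM, counts scaled to a common library total with TMM factors, unless a length is named.

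Tubulin and stathmin transcripts rose in ILC2s of IL-33-treated mice, where 7 of the 10 genes passed the test. The 7 genes higher with IL-33 were Stmn1, Tubg1, the Tuba1a, Tuba1b and Tuba1c group, Tubb4b and Tubb5, with fold changes from 2.31 (Tubb5) to 15.0 (Stmn1). Tuba4a, Tubb6 and Tubb2a did not pass the test. The test was edgeR's quasi-likelihood test with Benjamini-Hochberg adjustment over 14405 genes at 0.05. It called 13.7% of all genes tested higher and 11.6% lower, 25.2% in all, and the median log2 change was 1.68 over the 10 genes and -0.05 over all genes tested. The groups did not overlap in 7 of the 10 genes, which were the genes called, beside 26.1% of all genes tested (15.3% higher, 10.8% lower). Many reads of Tuba1a, Tuba1b and Tuba1c cannot be assigned to a single gene (below). These genes are therefore not separate measurements in the counts and the median. The count of the 10 genes called lower was 0, also by DESeq2, by limma-voom with sample weights and by limma-trend, and 0 were lower at an unadjusted p under 0.05. In bulk RNA, a change in the number of cells that express a gene and a change in RNA per cell cannot be told apart. The same 7 genes were higher without PBS replicate 4. Without the 3 globin-rich IL-33 libraries 6 were higher, Tubg1 being past the threshold no longer.

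**Figure D1:**
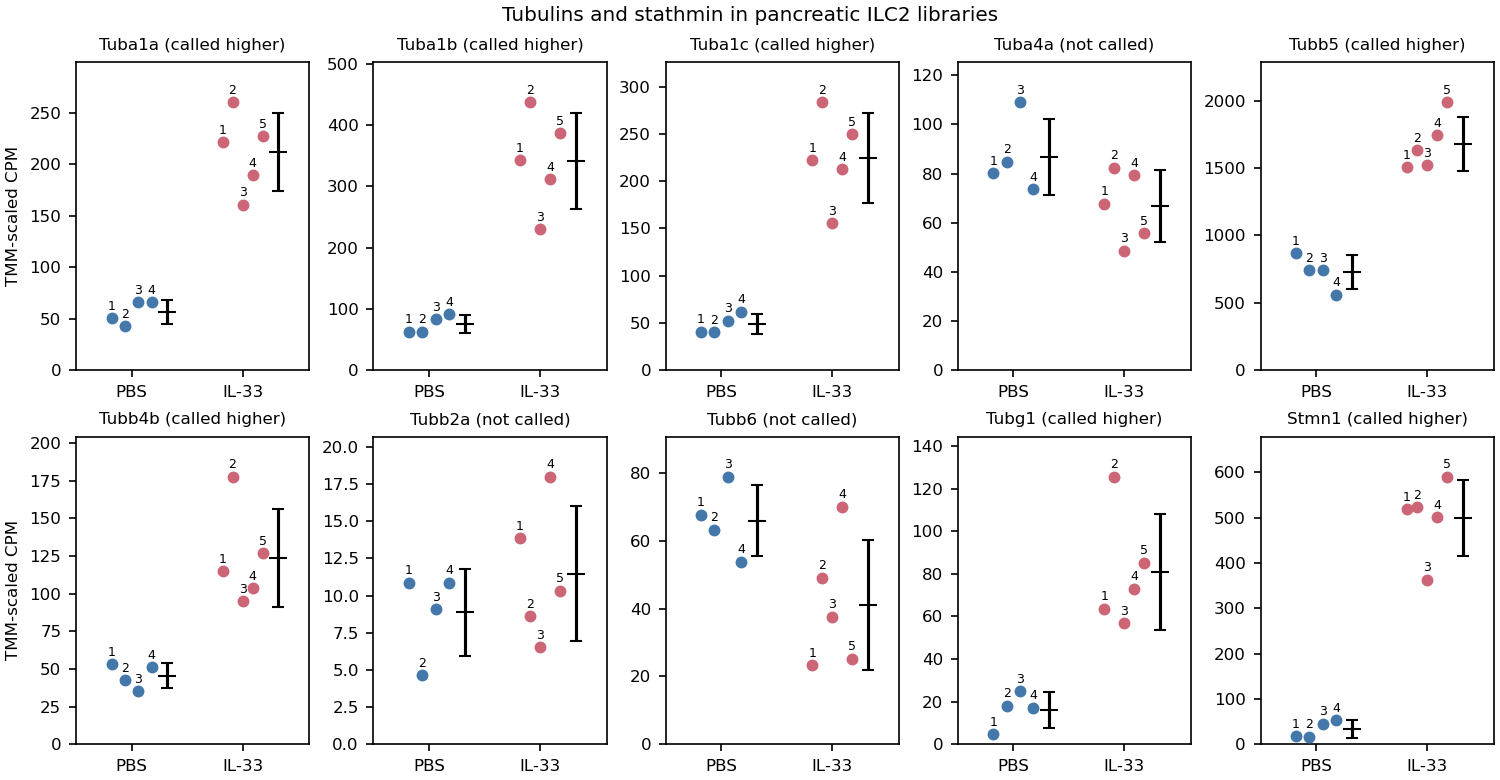
TMM-scaled CPM (linear axes from 0, 1 panel per gene) of the 10 genes, with each PBS and IL-33 library as a point carrying its replicate number and, beside the points, the group's mean and SD. In the 7 genes higher with IL-33, from Stmn1 (33.3 to 499 CPM) to Tubb5 (727 to 1680.3 CPM), all 5 IL-33 libraries lie above all 4 PBS libraries, and in Tuba4a, Tubb2a and Tubb6 the groups overlap.

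Among the alpha-tubulins, Tuba1a, Tuba1b and Tuba1c encode nearly the same protein and lie near each other on chromosome 15. In GRCm38, Tuba1b is at chr15:98931425-98934565 on the minus strand, Tuba1a at chr15:98949837-98953703 on the minus strand and Tuba1c at chr15:99029891-99038110 on the plus strand. Tuba4a lies apart, at chr1:75214228-75219865 on the minus strand. The coding sequences of Tuba1a and Tuba1b were 98.3% identical, those of Tuba1b and Tuba1c 97.9%, and those of Tuba1a and Tuba1c 97.1%, whereas Tuba4a shared 84.7% to 85.2% with the other 3. The last 60 coding bases of Tuba1c and Tuba4a are shown from the GENCODE M21 transcripts, because they hold the tail that sets isotypes apart, with the last codon before the stop in capitals.
Tuba1c end: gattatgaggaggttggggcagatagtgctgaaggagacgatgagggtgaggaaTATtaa
Tuba4a end: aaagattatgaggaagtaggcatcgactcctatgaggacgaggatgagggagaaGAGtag
The last codon encodes tyrosine in Tuba1c and glutamate in Tuba4a. The terminal tyrosine is what vasohibins remove and tubulin tyrosine ligase puts back, and Tuba4a is encoded without it.

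Tuba1b, the alpha-tubulin gene of most proliferating cells, was at 62.7, 62.6, 83.4 and 91.3 CPM in PBS replicates 1 to 4 and at 342, 437, 229.7, 312 and 387 CPM in IL-33 replicates 1 to 5. Even the lowest IL-33 library lay well above the highest PBS library. The group means were 75.0 ± 14.6 (SD, n = 4) and 342 ± 78.5 (SD, n = 5), a 4.55-fold rise (log2 change 2.19 ± 0.21 SE; edgeR adjusted p 1.6e-04). Tuba1c followed it, at 40.6, 40.1, 52.2 and 61.6 CPM with PBS and 222, 283, 156, 212 and 249 CPM with IL-33. It rose 4.62-fold, by 2.21 ± 0.21 on the log2 scale (SE; edgeR adjusted p 1.4e-04). Tuba1a, known for its role in neurons, was at 50.3, 42.3, 66.1 and 66.0 CPM with PBS and 222, 260.4, 161, 189.6 and 228 CPM with IL-33, again without overlap. Its rise was 3.78-fold, 1.92 ± 0.19 on the log2 scale (SE; edgeR adjusted p 2.0e-04).

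Reads of the Tuba1 genes cannot all be assigned to a single gene. Of the possible 150-base windows of the transcripts, 57.9% in Tuba1b, 54.7% in Tuba1a and 46.7% in Tuba1c also occur in a transcript of another gene, so the split among them is uncertain. Summed as a single gene, the 3 had a mean of 180 ± 36.1 CPM with PBS (SD, n = 4) and of 779 ± 163 CPM with IL-33 (SD, n = 5), a 4.33-fold rise (log2 change 2.11 ± 0.20 SE; edgeR adjusted p 1.5e-04). Within the sum, the deposited counts gave Tuba1b 40.8% to 43.2% with PBS and 42.0% to 44.8% with IL-33. Tuba1a held 29.2% to 32.7% and then 26.4% to 29.5%, and Tuba1c 25.9% to 28.1% and then 28.3% to 29.8%. Of the 3 shares, only that of Tuba1c did not overlap between groups. The processed pseudogenes Gm17383, Gm14150, Gm5620, Gm6682 and Gm3756 held 30.8% to 33.0% of gene plus pseudogene counts across the 9 libraries, with overlapping groups. With their counts added, the log2 change was 2.13 ± 0.20 (SE; edgeR adjusted p 1.5e-04).

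Tuba4a is best known from blood platelets. It was at 80.0, 84.9, 109 and 73.7 CPM with PBS and 67.7, 82.4, 48.6, 79.3 and 55.6 CPM with IL-33. The groups overlapped and the log2 change of -0.38 ± 0.19 (SE) missed the threshold (edgeR adjusted p 0.170). Its exons overlap those of the antisense gene Stk16 over 1379 bases. Without strand, reads there cannot be told apart, and Stk16 itself was at 50.2 ± 6.29 CPM (SD, n = 4) and 57.2 ± 6.83 CPM (SD, n = 5). The platelet marker list summed to 1.06 to 5.79 CPM with PBS and 1.38 to 3.14 CPM with IL-33.

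Among the beta-tubulins, Tubb5 (chr17:35833921-35838306, minus strand), the beta-tubulin of immune and dividing cells, had the most transcript. Tubb4b (chr2:25222160-25224702, minus strand) is a broadly expressed isotype, and Tubb2a (chr13:34074274-34078007, minus strand) is best known from neurons. The coding sequences of the 4 beta genes were 80.2% to 84.6% identical in pairs, and Tubb5 and Tuba1b shared 55.8%. The coding starts are shown because they encode the amino terminus that the TTC5 pathway reads, and capitals mark bases that differ from Tubb5.
Tubb5 start: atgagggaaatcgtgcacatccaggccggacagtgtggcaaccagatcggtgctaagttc
Tubb4b start: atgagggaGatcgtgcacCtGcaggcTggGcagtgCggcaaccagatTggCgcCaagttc
Tubb2a start: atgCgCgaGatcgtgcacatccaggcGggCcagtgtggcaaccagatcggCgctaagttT
Tubb4b differed from Tubb5 at 9 of these 60 bases and Tubb2a at 7. The coding ends are shown because the isotypes differ most there, with the last codon in capitals.
Tubb5 end: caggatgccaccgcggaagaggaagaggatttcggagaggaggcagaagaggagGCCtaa
Tubb4b end: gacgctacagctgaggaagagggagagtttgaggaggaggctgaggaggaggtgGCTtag
Tubb2a end: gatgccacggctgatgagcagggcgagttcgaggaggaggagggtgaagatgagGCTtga
All 3 end in an alanine codon, and none carries the terminal tyrosine of Tuba1c.

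Tubb5 was at 868, 741, 739.7 and 559 CPM in PBS replicates 1 to 4 and at 1511, 1634, 1522, 1745 and 1990.3 CPM in IL-33 replicates 1 to 5. The lowest PBS value was in the acinar-rich replicate 4, and no IL-33 library reached down to the PBS range. The means were 727 ± 127 (SD, n = 4) and 1680.3 ± 198 (SD, n = 5), a 2.31-fold rise (log2 change 1.21 ± 0.14 SE; edgeR adjusted p 4.5e-04). Without PBS replicate 4 the log2 change was 1.09 (edgeR adjusted p 8.0e-04). Tubb4b was at 53.1, 42.4, 35.2 and 51.1 CPM with PBS and 115, 178, 94.8, 104 and 127 CPM with IL-33. It rose 2.72-fold, by 1.44 ± 0.21 on the log2 scale (SE; edgeR adjusted p 0.0013). Its pseudogenes Tubb4b-ps1 and Tubb4b-ps2 held 26.6% to 31.8% of the joint counts with PBS and 26.7% to 30.5% with IL-33, and with them added Tubb4b rose by 1.42 ± 0.21 on the log2 scale (SE; edgeR adjusted p 0.0014).

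Tubb6 (chr18:67390717-67402749, plus strand), a divergent isotype, had the widest spread between IL-33 libraries of the 3 genes that were not called. It was at 67.7, 63.2, 78.9 and 53.8 CPM with PBS and 23.2, 49.1, 37.6, 70.0 and 25.2 CPM with IL-33. IL-33 replicates 1 to 3 and 5 lay below all PBS libraries, and replicate 4 lay within the PBS range. The log2 change was -0.68 ± 0.31 (SE; edgeR adjusted p 0.143) over all libraries and -0.98 (edgeR adjusted p 0.0305) without IL-33 replicate 4, which alone decides the call. Tubb2a was low, at 10.9, 4.64, 9.07 and 10.9 CPM with PBS and 13.9, 8.61, 6.51, 18.01 and 10.3 CPM with IL-33. The groups overlapped (log2 change 0.37 ± 0.37 SE; edgeR adjusted p 0.50). Tubb2a shares 27.9% of its 150-base windows with other genes, and summed with its near-identical copy Tubb2b it changed by 0.36 ± 0.36 on the log2 scale (SE; edgeR adjusted p 0.493).

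**Figure D2:**
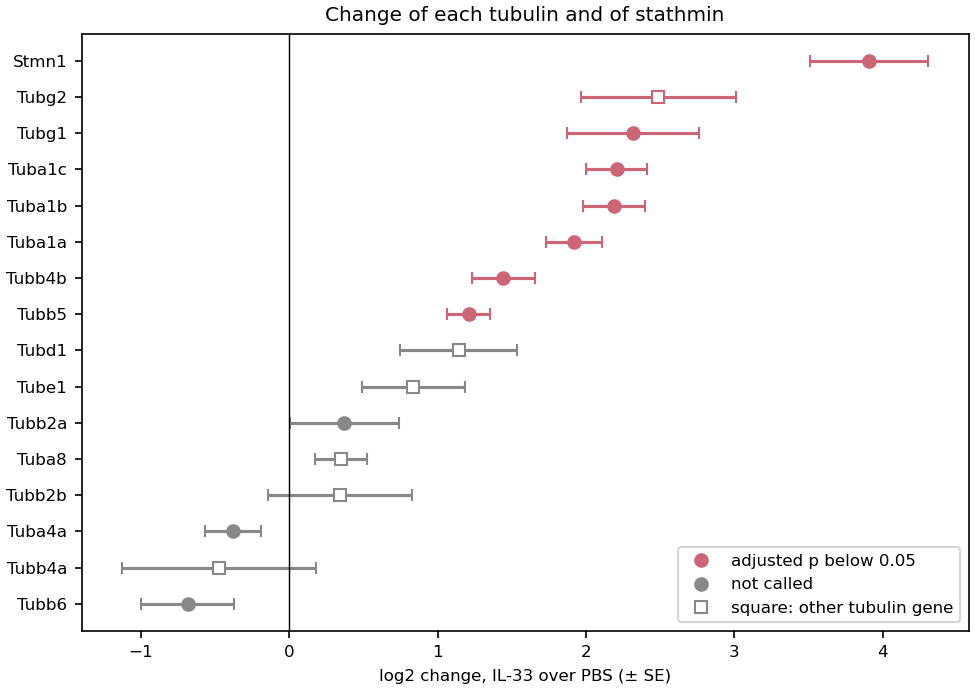
Log2 change of the 10 genes with IL-33 against PBS, as points with the SE as bars, from edgeR's quasi-likelihood fit, with calls marked by colour, beside 6 other tubulin genes as open squares. Stmn1 stands at 3.91, the Tuba1 genes lie between 1.92 and 2.21, Tubb5 and Tubb4b at 1.21 and 1.44, and Tubb6 is farthest below 0 at -0.68, where the test was not passed.

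Tubg1 (chr11:101119938-101126419, plus strand) encodes the gamma-tubulin of the rings from which microtubules grow. It was at 4.67, 18.1, 25.0 and 17.1 CPM with PBS and 63.6, 126, 56.9, 73.1 and 85.2 CPM with IL-33. PBS replicate 1 was the lowest, and the groups did not overlap. The means of 16.2 ± 8.47 (SD, n = 4) and 80.9 ± 27.2 (SD, n = 5) differed 4.98-fold (log2 change 2.32 ± 0.44 SE; edgeR adjusted p 0.0049). Without the globin-rich IL-33 replicates 1, 2 and 3 the log2 change was 2.29 (edgeR adjusted p 0.0566). Its copy Tubg2, at 1.48 ± 0.82 CPM (SD, n = 4) and 8.31 ± 2.86 CPM (SD, n = 5), rose by 2.49 ± 0.52 (log2, SE; edgeR adjusted p 0.0077), and the 2 genes summed rose 5.04-fold (edgeR adjusted p 0.0046).

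Stmn1 (chr4:134468320-134473843, plus strand) encodes stathmin, which holds free dimers and is switched off by phosphorylation when cells enter mitosis. Its first 60 coding bases are shown from its GENCODE M21 transcript, and counts were given per gene.
Stmn1 start: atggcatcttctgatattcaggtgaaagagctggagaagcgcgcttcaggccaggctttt
Stmn1 was at 18.1, 16.4, 45.2 and 53.6 CPM in PBS replicates 1 to 4 and at 519, 523, 363, 501 and 590.4 CPM in IL-33 replicates 1 to 5. PBS replicates 3 and 4 were above replicates 1 and 2, and every IL-33 library was far above all of them. The means of 33.3 ± 18.9 (SD, n = 4) and 499 ± 83.3 (SD, n = 5) differed 15.0-fold (log2 change 3.91 ± 0.40 SE; edgeR adjusted p 2.3e-04). Without PBS replicate 4 the log2 change was 4.22 (edgeR adjusted p 3.4e-04), and without the globin-rich libraries 4.05 (edgeR adjusted p 0.0112). The pseudogene Gm11223, which shares sequence with 16.6% of the 150-base windows of Stmn1, held 21.7% to 23.2% of the joint counts with PBS and 22.6% to 23.3% with IL-33. With it added, the log2 change was 3.92 ± 0.40 (SE; edgeR adjusted p 2.2e-04). The other stathmin genes are mainly neuronal. Stmn3 had counts in IL-33 replicates 2, 3 and 4 (8, 15 and 39), Stmn2 had 38 counts in IL-33 replicate 4 and at most 2 elsewhere, and neither passed the filter.

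The Tuba1 genes held a larger share of alpha-tubulin in all IL-33 libraries than in any PBS library. In beta-tubulin, the share of Tubb6 was smaller in all IL-33 libraries than in any PBS library. The shares of Tubb5, Tubb4b and Tubb2a overlapped when scaled by merged exons. Levels of different genes were compared per length, as CPM per kilobase of merged exons, and the shares are given without a test. The Tuba1 genes together held 66.4%, 63.7%, 68.7% and 74.1% of alpha-tubulin with PBS and 91.6%, 90.0%, 89.0%, 89.0% and 92.1% with IL-33. The share of Tuba4a went from 17.6% ± 3.05 (SD, n = 4) to 4.14% ± 0.75 (SD, n = 5), and that of Tuba8, an alpha isotype outside the 10 genes, from 14.1% ± 2.26 to 5.47% ± 1.02. Neither share overlapped between groups. The level of Tuba8 itself was 42.3 CPM with PBS and 53.9 CPM with IL-33 (log2 change 0.35 ± 0.18 SE; edgeR adjusted p 0.182). Of beta-tubulin, Tubb5 held 78.6% ± 3.61 with PBS and 85.3% ± 2.61 with IL-33, with overlapping ranges, and Tubb6 9.81% ± 1.19 and 2.85% ± 1.26, without overlap. The Tubb5 overlap was narrow, with 81.6% in PBS replicate 2 and 81.2% in IL-33 replicate 2. It depends on the length used, as the Tubb5 ranges did not overlap with no length scaling. Summed alpha-tubulin was 135 ± 19.4 and 440 ± 89.6 CPM per kilobase, and summed beta-tubulin 277 ± 38.9 and 592 ± 64.3. The shares, these sums and the ratio below leave out the pseudogenes. Pseudogenes held 30.8% to 33.0% of the joint counts for the Tuba1 genes and 26.6% to 31.8% for Tubb4b. Tubb5 shares 0% of its 150-base windows with other genes. The effect of adding pseudogene counts to the shares and the ratio was not tested. The exons of Tuba4a overlap those of the antisense gene Stk16 over 1379 bases. The part of Stk16 reads in the alpha shares and the ratio was not tested. The ratio of beta to alpha was 2.71, 2.34, 1.87 and 1.51 with PBS and 1.21, 1.08, 1.67, 1.51 and 1.42 with IL-33, and the groups overlapped. The ratio depends on the length used: its means of 2.11 with PBS and 1.38 with IL-33 became 3.02 and 2.27 by mean transcript length and 2.83 and 2.13 with no length scaling. The acinar-rich PBS replicate 4 had the highest Tuba1 share and the lowest ratio of its group. Without it the PBS means were 66.3% for the Tuba1 share, 80.3% for Tubb5 and 2.31 for the ratio.

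**Figure D3:**
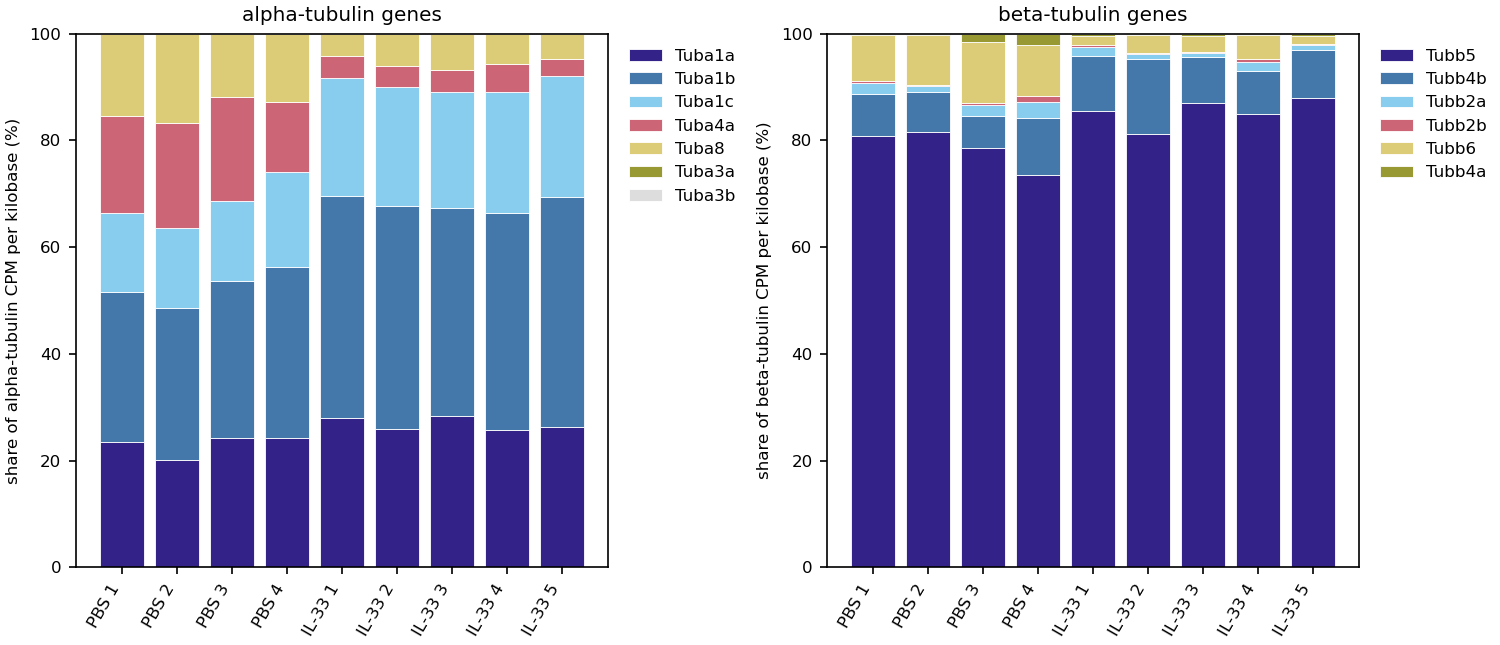
Share (percent, from 0 to 100) of each isotype in summed alpha-tubulin and summed beta-tubulin, 1 bar per library, from CPM per kilobase of merged exons. Pseudogene counts are left out. The Tuba1 genes fill 63.7% to 74.1% of alpha-tubulin in the PBS bars and 89.0% to 92.1% in the IL-33 bars, while Tubb5 is the main beta-tubulin in every bar.

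Ranked per kilobase with pseudogene counts left out, Tubb5 was highest in both groups. With PBS it stood at 218 CPM per kilobase, clear of Tuba1b at 40.0, and the following genes overlapped with their neighbours: Tuba1a at 31.2, Tubb6 at 27.0, Tuba4a at 23.5, Tubb4b at 21.8, Tuba1c at 21.3, Stmn1 at 17.3, Tubg1 at 7.16 and Tubb2a at 5.51. With IL-33, Tubb5 stood at 505 CPM per kilobase and Stmn1 was next at 260, with no overlap between them. Tuba1b at 182, Tuba1a at 118, Tuba1c at 98.2, Tubb4b at 59.2 and Tubg1 at 35.7 followed, then Tuba4a at 18.03, Tubb6 at 16.8 and Tubb2a at 7.12. In that order Tubg1 did not overlap with Tuba4a below it. The ranges of Stmn1 and Tuba1b, 189 to 307 and 122 to 233, overlapped, as did those of Tuba4a, Tubb6 and Tubb2a with their neighbours, so places among these genes are not distinct by this length. Places and overlaps depend on the length used. The merged exons of Stmn1 cover 1922 bases, and the transcript used for its coding bases holds 1060. The order by another length was not tested.

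Windows of 250 bases before the start that RefSeq (GRCm38.p6) gives were taken for the 7 of 10 genes that matched. RefSeq's starts differ from those of GENCODE: 202 of the 250 bases of Tuba1a, 175 of Tuba1b and 119 of Tuba4a lie in exons that GENCODE annotates. Both strands were searched for CCAAT, the box bound by NF-Y, the cell cycle element CHR (TTTGAA or TTCGAA), the GC box GGGCGG and the E2F motif (TTTCCCGC, TTTGGCGC or TTTCGCGC). A CCAAT can share a base with a CHR but does not in the windows shown. Of 32851 windows, 33.8% hold a CCAAT, 17.1% a CHR, 32.7% a GC box and 1.53% an E2F motif. Tubb4b has 5 CCAAT, a count that 0.213% of windows reach, and 1 CHR. Tubb5 has 2 CCAAT, reached by 10.1% of windows, Tuba1a and Tuba1c have 1, and Tuba1b, Tuba4a and Tubb2a have 0. The windows of Tuba1a, Tuba1b and Tuba4a are partly exonic, and the CCAAT of Tuba1a lies in the exonic part. The GC box was found 2 times in Tuba1b, Tuba4a and Tubb2a, 1 time in Tuba1a and Tubb4b and 0 times in Tuba1c and Tubb5, and the E2F motif 0 times in all 7. The windows of Tubb4b (chr2:25224703-25224952, minus strand), Tubb5 (chr17:35838307-35838551, minus strand) and Tuba1c (chr15:99029641-99029890, plus strand) are shown as genes called higher whose windows hold the box, with both motifs in capitals (ATTGG is CCAAT on the other strand).
Tubb4b promoter: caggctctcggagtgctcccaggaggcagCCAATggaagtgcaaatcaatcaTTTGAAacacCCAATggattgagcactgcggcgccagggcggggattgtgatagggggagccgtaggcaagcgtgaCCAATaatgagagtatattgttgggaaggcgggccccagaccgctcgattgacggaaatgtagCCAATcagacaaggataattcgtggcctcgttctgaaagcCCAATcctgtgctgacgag
Tubb5 promoter: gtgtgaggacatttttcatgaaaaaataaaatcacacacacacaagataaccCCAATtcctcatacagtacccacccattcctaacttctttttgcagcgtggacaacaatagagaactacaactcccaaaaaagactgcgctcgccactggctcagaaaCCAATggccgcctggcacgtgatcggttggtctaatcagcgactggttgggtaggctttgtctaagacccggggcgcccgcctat
Tuba1c promoter: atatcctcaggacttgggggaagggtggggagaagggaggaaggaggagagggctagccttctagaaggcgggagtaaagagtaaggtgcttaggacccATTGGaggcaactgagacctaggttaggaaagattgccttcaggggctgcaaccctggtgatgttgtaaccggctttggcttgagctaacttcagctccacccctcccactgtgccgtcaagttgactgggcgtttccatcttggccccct
The window of Tubb5 is shown without its last 5 bases, which lie in an annotated exon, and so holds 245. A match is a string of letters and does not show binding.

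Over 9 pathway lists with 118 genes tested, 25 genes (21.2%) were higher and 12 (10.2%) lower by the same test, beside 13.7% and 11.6% of all genes tested, so the lower share was no larger than the background. The median log2 change was 0.18. The counts fell to 6 and 3 without the globin-rich libraries, which leaves only IL-33 replicates 4 and 5. Over all genes the counts in that fit fell as well, from 1967 to 732 higher and from 1666 to 664 lower. Scaled by library size alone, Cdk5rap2, Tubgcp3, Haus4, Haus1, Cct2, Cct5, Cnot2, Atat1, Ttll4 and Mapre2 were not called, the folding genes called higher fell from 8 to 2, and the stathmin kinases and microtubule-associated proteins called lower fell from 2 to 0 in each list. Among the other tubulins, 1 of 6 tested genes (16.7%) rose (Tubg2, above), beside 13.7% of all genes tested. Tubd1 and Tube1, the delta- and epsilon-tubulins of centrioles, had log2 changes of 1.14 (edgeR adjusted p 0.0606) and 0.84 (edgeR adjusted p 0.107). Without PBS replicate 4 or without IL-33 replicate 5 the count was 2.

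Of 11 genes of the gamma-tubulin ring complex and its anchors, 3 were lower (27.3%, beside 11.6% of all genes tested). Akap9, which anchors the ring at the Golgi and centrosome, was at 197 ± 37.3 CPM with PBS (SD, n = 4) and fell to 59.2 ± 14.7 CPM with IL-33 (SD, n = 5), that is by -1.73 ± 0.20 on the log2 scale (SE; edgeR adjusted p 3.4e-04). The ring activator Cdk5rap2 went from 36.9 to 19.2 CPM (log2 -0.94; edgeR adjusted p 0.011), and the ring subunit Tubgcp3 from 40.1 to 23.9 CPM (log2 -0.74; edgeR adjusted p 0.0404). The Tubgcp3 call was kept only when PBS replicate 1 or IL-33 replicate 4 was the library left out (adjusted p 0.0735 to 0.0859 otherwise). Of 8 augmin genes, which branch new microtubules from spindle fibres, 3 were higher: Haus8 from 12.7 to 31.7 CPM (log2 1.32; edgeR adjusted p 0.0085), Haus4 from 19.7 to 41.3 CPM (log2 1.07; edgeR adjusted p 0.0263) and Haus1 from 23.9 to 38.6 CPM (log2 0.69; edgeR adjusted p 0.0383). The Haus1 call was kept in the leave-one-out fits only without PBS replicate 3 (adjusted p 0.0593 to 0.101 otherwise). The share of augmin genes higher was 37.5%, beside 13.7% of all genes tested. The augmin count was 1 without PBS replicate 1, without IL-33 replicate 2 or without IL-33 replicate 5.

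Of 21 genes that fold tubulin, 8 were higher (38.1%, beside 13.7% of all genes tested). They included subunits of the chaperonin that folds tubulin and actin: Tcp1 rose from 109 to 184 CPM (log2 0.76; edgeR adjusted p 0.0017), Cct2 by 0.55 (edgeR adjusted p 0.0051) and Cct5 by 0.62 (edgeR adjusted p 0.0067). Pfdn1, Cct7, Cct4 and the tubulin cofactors Tbcb and Tbcd were the others. Leaving out PBS replicate 3 brought the count to 5, and leaving out IL-33 replicate 4 brought it to 4. Of the 10 genes of the mRNA autoregulation pathway, 3 were lower and 1 higher (30% and 10%, beside 11.6% and 13.7% of all genes tested). Cnot6l, a deadenylase, fell from 494 to 231 CPM (log2 -1.10; edgeR adjusted p 3.5e-04), Scaper, the adaptor that TTC5 recruits, from 49.9 to 17.9 CPM (log2 -1.48; edgeR adjusted p 0.0041), and Cnot2 from 64.2 to 36.9 CPM (log2 -0.80; edgeR adjusted p 0.0096). Ttc5 itself was at 87.3 and 72.9 CPM (log2 -0.26; edgeR adjusted p 0.308). The higher gene, Cnot3, lost its call when any of PBS replicates 1, 2 and 4 or IL-33 replicates 1, 4 and 5 was left out, which brings the count to 0.

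Of 14 enzymes that modify tubulin, 2 were lower: the alpha-tubulin acetyltransferase Atat1, from 10.8 to 5.00 CPM (log2 -1.11; edgeR adjusted p 0.0229), and the glutamylase Ttll4, from 12.1 to 5.15 CPM (log2 -1.24; edgeR adjusted p 0.0349). The lower share of this list, 14.3%, was near the 11.6% of all genes tested. Leaving out PBS replicate 1 or IL-33 replicate 2 brought the count of lower enzymes to 0. Leaving out PBS replicate 2 or any of IL-33 replicates 1, 4 and 5 brought it to 1. The deacetylase Sirt2 was at 102 and 132 CPM (log2 0.37; edgeR adjusted p 0.122). Of 25 microtubule-associated proteins, 6 were higher and 2 lower (24% and 8%, beside 13.7% and 11.6% of all genes tested). The spindle proteins Tpx2, from 9.51 to 114 CPM (log2 3.58; edgeR adjusted p 1.4e-04), and Prc1, from 10.8 to 71.8 CPM (log2 2.75; edgeR adjusted p 0.0018), and the plus-end protein Mapre2, from 68.8 to 162 CPM (log2 1.23; edgeR adjusted p 0.0045), rose. Leaving out any of PBS replicates 2 and 4 or IL-33 replicates 1, 4 and 5 brought the lower count to 1.

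Of 10 severing and depolymerising proteins, 3 were higher, all kinesins (30%, beside 13.7% of all genes tested). Kif2c, which takes tubulin off filament ends, had no count in any PBS library and 28.3 CPM with IL-33, which is at least 147-fold higher when each PBS library is set to a floor of 3 counts. Kif19a likewise went from no count to 2.91 CPM, at least 15.1-fold higher. Kif18b was at 0.144 and 6.23 CPM (log2 5.29; edgeR adjusted p 0.0063). Of 13 kinases that phosphorylate stathmin, 3 were higher and 2 lower (23.1% and 15.4%, beside 13.7% and 11.6% of all genes tested). The mitotic kinases rose: Cdk1 from 3.34 to 125 CPM (log2 5.25; edgeR adjusted p 0.0016), Aurkb from 4.04 to 74.6 CPM (log2 4.25; edgeR adjusted p 0.0099) and Plk1 from 3.91 to 95.2 CPM (log2 4.63; edgeR adjusted p 0.0135). Camk2d (log2 -0.66; edgeR adjusted p 0.024) and Mapk14 (log2 -0.80; edgeR adjusted p 0.036) were lower. Leaving out any of PBS replicates 1 and 2 or IL-33 replicate 2 brought the lower count to 0, and leaving out any of IL-33 replicates 1, 4 and 5 to 1.

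**Figure D4:**
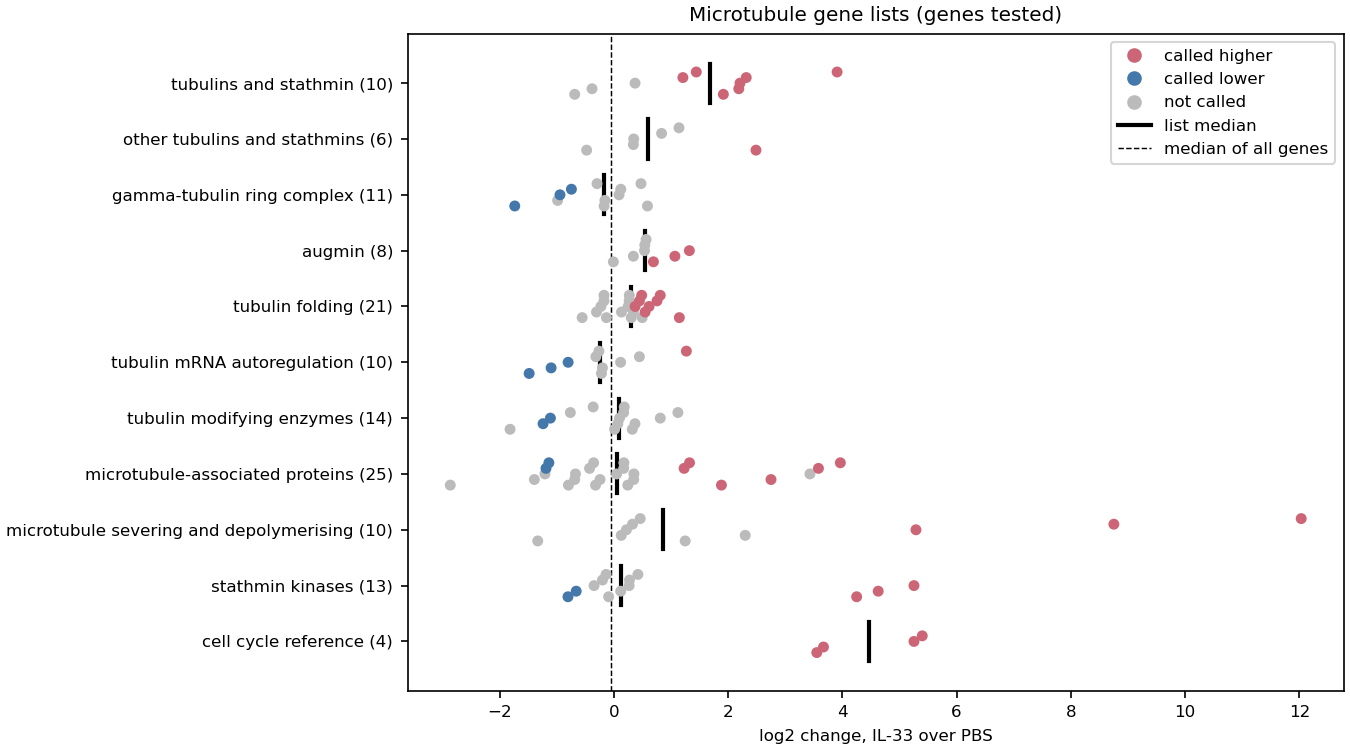
Log2 change (IL-33 against PBS) of each tested gene in the tubulin pathway lists, 1 point per gene, coloured by call, with list medians as bars and the number tested beside each list name; the points of Kif2c and Kif19a, farthest right, had no count with PBS and their position depends on the fit's prior count. The 4 cell cycle reference genes have a median of 4.46, against medians between -0.24 and 0.86 in the 9 pathway lists.

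The profiles most like those of Stmn1 and Tuba1b over the 9 libraries were sought among 10898 genes, by the root-mean-square difference of centred log2(CPM + 0.5) values. For Stmn1 they were Cks1b (0.20), a partner of cyclin-dependent kinases, the histone genes Hist1h2ah (0.28), Hist1h2ac (0.29) and Hist1h2ag (0.33), and Top2a (0.30), the topoisomerase that untangles replicated DNA. The histone genes were low with PBS, with means of 1.84, 1.99 and 2.78 CPM, so their places depend in part on the added 0.5 CPM. Cks1b was at 11.6, 11.5, 23.9 and 26.7 CPM with PBS, where Stmn1 also had its higher values in replicates 3 and 4. For Tuba1b they were its copies Tuba1c (0.04) and Tuba1a (0.16), with which it shares reads, then Cks1brt (0.15), the glycolytic gene Gapdh (0.17) and the DNA ligase gene Lig1 (0.19). Cks1brt was near the floor, with means of 0.478 CPM with PBS and 4.38 CPM with IL-33. Its fitted change was 9.14-fold, and the 0.5 CPM added before the log is about its PBS level, so its place depends on that setting. Lig1 was at 48.4, 42.9, 72.2 and 61.7 CPM with PBS and 214, 384, 192, 299 and 299.6 CPM with IL-33. IL-33 replicate 2 was highest and replicate 3 lowest in both Lig1 and Tuba1b. These likenesses are over 9 libraries that fall into 2 groups, and share each library's scaling.

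**Figure D5:**
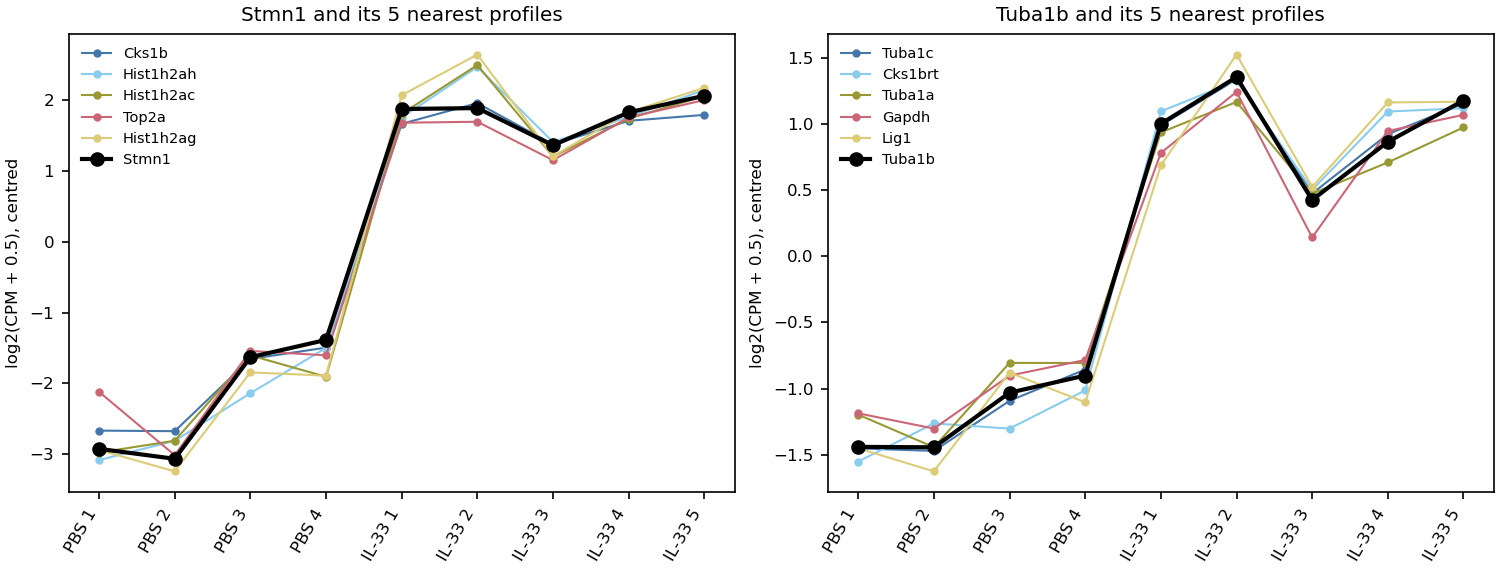
Centred log2(CPM + 0.5) of Stmn1 and Tuba1b and of the 5 genes nearest to each, by library, with lines that only join the points of a gene. All profiles step up between the PBS and the IL-33 libraries, and IL-33 replicate 3 is the lowest IL-33 library of Stmn1 (363 CPM) and of Tuba1b (229.7 CPM).

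Marker lists of other cells that differed between groups are given as measured values. The erythroid list summed to 168 to 323 CPM with PBS and 369 to 3568 CPM with IL-33, with 4 of 6 genes higher. Of 5 mast cell and basophil markers 2 were in the table, with 15.4 to 45.8 CPM and 94.2 to 357 CPM and Cpa3 higher. The endothelial list had 38.5 to 177 CPM and 17.5 to 58.8 CPM with 2 of 6 genes lower. Of the B cell markers Cd79b was higher and Ighm lower. The duct marker Epcam was lower (18.1 and 0.833 CPM; edgeR adjusted p 0.0095), and the fibroblast marker Col1a2 was lower (6.79 and 0.310 CPM; edgeR adjusted p 0.0193). The duct list summed to 14.6 to 322 CPM with PBS and 2.44 to 47.0 CPM with IL-33, and the fibroblast list to 4.10 to 29.0 CPM and 0.387 to 10.1 CPM. Of 8 neuron and glia markers, which bear on the neuronal isotypes, only 3 were in the count table. These summed to 2.19 to 11.9 CPM with PBS and 1.14 to 2.88 CPM with IL-33, and the groups overlapped. The part of these cells in the tubulin values was not tested.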

How the data were processed

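ILC2 libraries (4 PBS, 5 IL-33) were made from 5 to 15 ng of RNA with a low-input kit and sequenced as paired 150-base reads, per the labels' protocols. The deposited counts are whole numbers per Ensembl gene. A second deposited table holds the authors' scaled values (signal), which are the counts divided by a factor per library and were used only as an alternative. The submitters' processing notes name the build GRCm38.p6 and the tools STAR 2.7.7a, Salmon 1.6.0, Trimmomatic 0.39, FastQC 0.11.9, Picard and DESeq2, with no roles. How reads of near-identical copies were assigned, and whether strand was used, is not given in the sources used here.

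Symbols from GENCODE M21 matched 20571 of 20732 identifiers (99.2%). Genes passing filterByExpr (minimum count 10) went into the test of edgeR 4.0.16 under R 4.3.3 (quasi-likelihood, robust, TMM, Benjamini-Hochberg over 14405 genes, 0.05), after a test on simulated data. The SE is the log2 change divided by the square root of F. Alternatives used limma 3.58.1, DESeq2 1.42.0, other scalings and filters, and left out libraries. Fold bounds use a floor of 3 counts per library and cover counting error only. Counts of replicates differed beyond sampling noise in all 16 pairs, with a chi-square of at least 52.6 per degree of freedom.

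Named were the 10 genes, the 3 smallest adjusted p of each pathway list, the 5 nearest profiles to Stmn1 and Tuba1b, and the cell cycle genes. Cct4, Cct7, Pfdn1, Tbcb, Tbcd, Cnot3, Ttc5, Stk16, Camk2d, Mapk14 and Tubb2b were added after their values were seen. The members and lists were chosen with earlier results of these data known. Some coding sequences are not reported here.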

Additional observations from a re-analysis of the deposited data

Results flagged for a closer look

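In 94 groups of libraries (47 named genes), 3 held a library farther from the others than Dixon's 95% limit allows, and chance gives about 1 in 20. Cnot2, a scaffold of the deadenylase complex, was at 25.8 CPM in IL-33 replicate 4 and at 37.0 to 41.1 CPM in the other IL-33 libraries. Mki67, a marker of cycling cells, was at 37.0 CPM in PBS replicate 4, the acinar-rich library, and at 9.80 to 14.03 CPM in the other PBS libraries. Mki67 was also at 244 CPM in IL-33 replicate 5 and at 192 to 205 CPM in the other IL-33 libraries.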

How the results depend on the processing

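Over 202 alternatives for the 10 genes, 200 kept direction and side of the threshold. The exceptions were Tubb6, called lower without IL-33 replicate 4, and Tubg1, at 2.29 without the 3 globin-rich libraries (edgeR adjusted p 0.0566), an alternative added after seeing the data. With library size alone the median of all genes shifted by 0.12 (log2), 1332 genes were higher and 644 lower, and 3 pathway genes were lower. A threshold of 0.01 gave 1019 higher and 767 lower genes, 15 and 5 in the pathway lists. Without the globin-rich libraries 732 genes were higher and 664 lower, 6 and 3 in the pathway lists. Leaving out each library in turn gave 1445 to 1969 genes higher and 1193 to 1726 lower, 18 to 25 and 7 to 12 in the pathway lists, and 0 to 1 of the 10 genes lower, with Tubb6 at -0.98 to -0.53. It gave Tuba1 shares of 66.3% to 69.7% (PBS) and 89.9% to 90.7% (IL-33), Tubb5 shares of 77.7% to 80.3% and 84.6% to 86.4%, and ratios of 1.90 to 2.31 and 1.30 to 1.45.

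The replicate block gave 791 genes higher and 666 lower, 7 and 3 in the pathway lists, and 7 of the 10 genes were called higher with it. Same-numbered libraries were not more alike than others. Their correlations were -0.036, -0.090, -0.052 and 0.066, and 0 of 4 PBS libraries correlated best with their own number. With so few libraries in each group, this check cannot exclude a pairing.

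Scaled by mean transcript length in place of merged exons, the Tuba1 share was 58.4% (PBS) and 87.6% (IL-33), the Tubb5 share 85.2% and 90.1%, and the ratio 3.02 and 2.27. With no length scaling these were 57.8% and 86.4%, 84.7% and 90.1%, and 2.83 and 2.13. Counts at or under the floor of 3, as in Kif2c with PBS, limit those folds to bounds.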
